A study of Homo sapiens with 8 samples.

Results

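Of the 16157 regions of the genome that carried wild-type ARID1A in both wild-type libraries, 436 also carried a peak of the V2084D mutant in both mutant libraries and no peak in either library of the mutant with STUB1 knockdown. These 436 regions (2.70% of all wild-type regions) are described here as held regions absent with knockdown. They were found in 3 steps. Peaks of the 2 wild-type (WT) lists that overlapped by at least 1 bp were merged into regions, the regions with a peak in both V2084D lists were kept as held regions (3445), and those with any peak in either knockdown list were taken out. Held regions without a knockdown peak were 12.7% of all held regions. Another 901 held regions had a peak in 1 knockdown list, 630 of them in replicate 1 and 271 in replicate 2, and 2108 had a peak in both. The members were thus chosen by the presence or absence of peaks in all 6 lists, so their number and their strength in these lists are a description and were not tested.

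All cells were Huh7, a human hepatocellular carcinoma line, in which the endogenous ARID1A gene had been knocked out and a Flag-tagged ARID1A was stably expressed from a lentivirus, so every group carried the knockout and an overexpressed protein. The 3 groups of Flag ChIP-seq libraries were ARID1A knockout with WT_Flag, ARID1A knockout with V2084D_Flag, and ARID1A knockout with V2084D_Flag and knockdown of STUB1, with 2 libraries each. Peak names in the WT and V2084D lists also carry the word shEV, and those of the knockdown lists the name of another shRNA, which the labels do not explain. The labels give neither separate cultures for the 2 libraries of a group nor whether the knockout line is 1 clone, so differences between libraries may be technical. The 2 labelled WT input libraries were not analysed here.

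ARID1A is the large subunit that gives the BAF form of the SWI/SNF complex its identity. This complex uses ATP to slide or evict nucleosomes at promoters and enhancers, and ARID1A is among the most often mutated chromatin genes in liver cancer. STUB1, also called CHIP, is a ubiquitin ligase that binds the chaperones HSP70 and HSP90 and marks their misfolded clients for the proteasome. Whether its knockdown changes where the mutant protein sits on chromatin is the question that the comparison of the mutant with and without knockdown addresses, and the members are WT regions where the mutant was listed on chromatin without the knockdown and not with it.

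The WT lists held 27587 and 26515 peaks, the V2084D lists 6000 and 12384, and the knockdown lists 8904 and 6663. The depth of the libraries is unknown, and the 2 V2084D lists were the least alike in length of the 3 pairs. The number of held regions absent with knockdown depended on the libraries used. It was 2043 without V2084D replicate 1 and 861 without V2084D replicate 2, and it was 1066 without knockdown replicate 1 and 707 without knockdown replicate 2. Without WT replicate 1 it was 487 and without WT replicate 2 it was 494. The mirror pattern, a peak in both knockdown lists and in neither V2084D list, was found at 398 WT regions (2.46% of all). The peak lists do not measure gene expression, and of 17 marker genes of hepatocytes and hepatocellular carcinoma 6 (APOA1, CEBPA, FOXA1, FOXA3, KRT8 and TF) had a WT region no further than 10 kb from either end, while ALB, AFP and HNF4A had none. None of the 17 had a held region absent with knockdown, which only the 6 with a WT region could have. Over all protein-coding genes with a WT region within 10 kb, 4.47% had one, so a count of 0 among 6 says little.

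To show what kind of DNA these regions cover, the promoters of 6 genes are printed. They are the first 6 among the strongest members whose 250 bases before the start of the gene are overlapped by a peak of both V2084D lists. The promoters of HSPA5 and KDR were added after their values were seen, because these genes belong to lists described later. The sequences are those of RefSeq (GRCh38.p14), run 5′ to 3′ on the strand of the gene and end at the base before the start. Capitals mark matches, on either strand, to the motifs searched, which are named after the sequences. In order they lie at chr2:231056617-231056866 (plus strand), chr1:62783882-62784131 (plus), chr9:105244401-105244650 (plus), chr22:31489843-31490092 (minus), chr3:42804491-42804740 (minus), chr20:25624015-25624264 (minus), chr9:125241344-125241593 (minus) and chr4:55125596-55125845 (minus).
PSMD1: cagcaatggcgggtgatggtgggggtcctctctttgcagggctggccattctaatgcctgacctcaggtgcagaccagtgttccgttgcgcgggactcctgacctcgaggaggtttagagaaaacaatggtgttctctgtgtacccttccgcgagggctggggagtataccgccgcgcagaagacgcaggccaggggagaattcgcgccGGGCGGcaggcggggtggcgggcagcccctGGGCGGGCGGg
ATG4C: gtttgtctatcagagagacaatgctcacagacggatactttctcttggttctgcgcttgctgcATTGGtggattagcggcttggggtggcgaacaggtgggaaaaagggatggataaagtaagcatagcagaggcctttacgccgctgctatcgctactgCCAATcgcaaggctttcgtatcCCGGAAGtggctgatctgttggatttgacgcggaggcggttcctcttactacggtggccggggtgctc
SLC44A1: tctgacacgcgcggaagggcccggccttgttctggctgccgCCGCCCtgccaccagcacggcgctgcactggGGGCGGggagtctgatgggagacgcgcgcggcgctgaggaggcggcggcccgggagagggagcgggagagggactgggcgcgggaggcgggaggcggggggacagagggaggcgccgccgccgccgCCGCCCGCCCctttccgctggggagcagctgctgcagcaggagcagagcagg
EIF4ENIF1: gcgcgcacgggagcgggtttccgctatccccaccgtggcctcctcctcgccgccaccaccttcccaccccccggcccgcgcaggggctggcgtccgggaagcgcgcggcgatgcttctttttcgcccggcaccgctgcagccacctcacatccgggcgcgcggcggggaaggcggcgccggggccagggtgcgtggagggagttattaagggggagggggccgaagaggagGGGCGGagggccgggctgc
HIGD1A: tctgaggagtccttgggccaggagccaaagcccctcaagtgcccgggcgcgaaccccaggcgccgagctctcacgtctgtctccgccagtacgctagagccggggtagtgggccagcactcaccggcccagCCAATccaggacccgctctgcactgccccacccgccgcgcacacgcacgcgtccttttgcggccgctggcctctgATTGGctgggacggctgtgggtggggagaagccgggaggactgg
NANP: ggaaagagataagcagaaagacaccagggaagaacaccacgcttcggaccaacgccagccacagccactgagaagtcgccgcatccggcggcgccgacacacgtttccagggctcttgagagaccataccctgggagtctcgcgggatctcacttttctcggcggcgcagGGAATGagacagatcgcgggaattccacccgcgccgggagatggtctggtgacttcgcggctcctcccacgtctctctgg
HSPA5: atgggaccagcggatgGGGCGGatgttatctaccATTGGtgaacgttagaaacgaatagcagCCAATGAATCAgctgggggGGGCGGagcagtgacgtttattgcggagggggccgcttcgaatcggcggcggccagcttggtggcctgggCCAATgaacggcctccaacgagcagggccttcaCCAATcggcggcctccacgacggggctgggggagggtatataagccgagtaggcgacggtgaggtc
KDR: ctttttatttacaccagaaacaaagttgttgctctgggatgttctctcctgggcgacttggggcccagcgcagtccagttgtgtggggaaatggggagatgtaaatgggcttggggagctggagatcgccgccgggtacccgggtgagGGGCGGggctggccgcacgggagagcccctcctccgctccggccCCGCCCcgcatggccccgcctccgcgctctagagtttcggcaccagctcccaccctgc

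The motifs were those of AP-1 (TGANTCA), TEAD (GGAATG), ETS factors (CCGGAAG), NFY (CCAAT), SP and KLF factors (GGGCGG), CREB (TGACGTC), E-box proteins (CACGTG), NRF1 (GCATGCG) and the TATA box (TATAAA). A match is a stretch of these letters and not a shown binding site. PSMD1, which encodes a scaffold subunit of the regulatory particle of the proteasome, had 3 GC boxes of the SP type, of which 2 overlap. HIGD1A, a mitochondrial protein gene known from the response to low oxygen, had 2 CCAAT boxes, and so had ATG4C, a protease of autophagy, beside 1 ETS match. HSPA5 encodes BiP, the main chaperone of the endoplasmic reticulum, and its promoter held 4 CCAAT boxes, 2 GC boxes and 1 AP-1 match that overlaps a CCAAT box. The V2084D summits lay at -145 and -171 bp from the start of ATG4C, at 23 and -82 bp at PSMD1, at 102 and 11 bp at HSPA5, and at 153 and 183 bp at KDR, where positive values lie inside the gene.

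The held regions absent with knockdown had lower median strength than held regions with a peak in both knockdown lists, in each of the 4 lists that hold both. Fold enrichment is the ratio of a peak over its local background as given by the authors' peak caller, and the strongest peak of a region is the one with the highest −log10 q. In WT replicate 1 the fold ran from 1.96 to 11.1 with a median of 5.46, and in WT replicate 2 from 2.04 to 13.8 with a median of 5.02. In V2084D replicate 1 it ran from 2.18 to 8.50 with a median of 4.44, and in V2084D replicate 2 from 2.07 to 8.44 with a median of 4.11. The held regions with a peak in both knockdown lists had medians of 6.83 and 6.41 in WT and of 4.90 and 4.91 in V2084D, and 5.25 and 4.82 in the knockdown lists themselves. Held regions with a peak in 1 knockdown list lay between, with medians of 5.97 and 5.64 in WT and 4.51 and 4.37 in V2084D. The 398 regions of the mirror pattern had WT medians of 5.30 and 5.06, close to those of the members. Lower strength is thus not particular to the members. Over all WT regions the WT medians were 5.12 and 4.85, so the median member stood close to the median WT region.

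**Figure D1:**
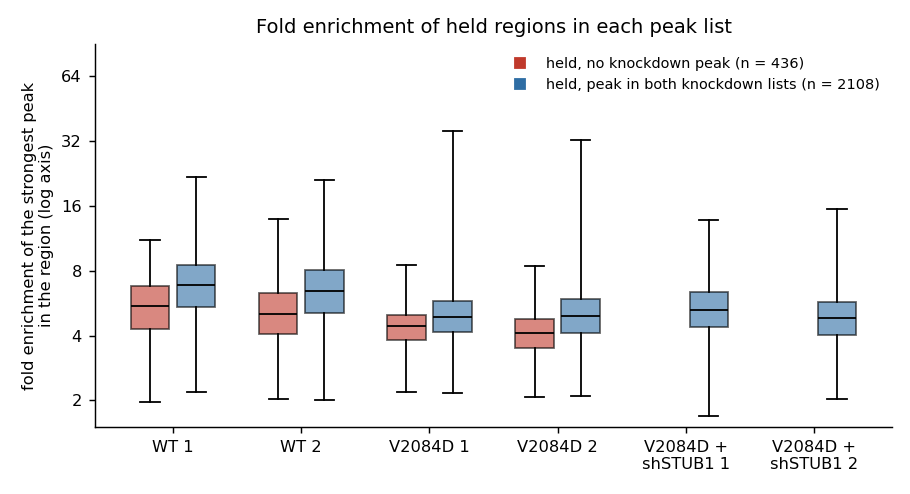
Fold enrichment (log axis) of the strongest peak in each region, by peak list, for the 436 held regions without a knockdown peak (red) and the 2108 held regions with a peak in both knockdown lists (blue). Boxes span the quartiles with the median as a line, and whiskers reach the lowest and highest region. The red medians lie below the blue ones in each of the 4 lists that hold both sets, and the ranges overlap widely.

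Ranks within a list gave the same order. The members had a median rank at 25.4% of the list in WT replicate 1 and 31.0% in WT replicate 2, and at 57.4% and 47.8% in the V2084D lists, where 0% is the strongest peak. For held regions with a peak in both knockdown lists these values were 9.49%, 10.1%, 30.4% and 17.1%. Regions of the mirror pattern stood much like the members, at 29.5% and 27.4% in WT and at 57.2% and 51.1% in the knockdown lists. Among the 436 members 29 lay in the top 10% of both WT lists and 5 in the top 10% of both V2084D lists, against 764 and 288 of the 2108. Peaks of V2084D at the members were also narrow, with median widths of 369 and 456 bp against 482 and 644 bp at held regions with both knockdown peaks.

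The share of held regions without a knockdown peak followed strength. With the held regions in 5 sets of 689 by V2084D strength (the worse of the ranks in the 2 V2084D lists), 12 of the strongest 689 lacked a knockdown peak (1.74%, 95% exact binomial interval 0.903 to 3.02%). In the next sets the shares were 7.69%, 12.3% and 17.6%. In the weakest set 165 of 689 lacked one (23.9%, 20.8 to 27.3%). Ordered by WT strength the share ran from 2.32% (1.33 to 3.74%) in the strongest set to 26.4% (23.2 to 29.9%) in the weakest. The intervals cover counting error only and hold no spread between libraries. Both orders rest on lists that the rule used, and these shares are a description. The median −log10 q of the strongest peaks at the members was 6.38 and 5.44 in WT and 2.88 and 2.97 in V2084D. The part of the strength of a peak in its absence from the knockdown lists was not tested.

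**Figure D2:**
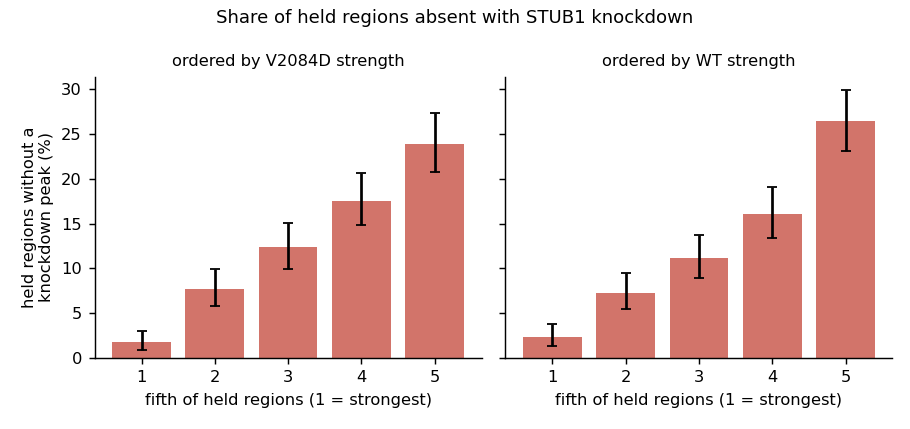
Percentage of held regions without a knockdown peak in 5 sets of 689 held regions, ordered by V2084D strength (left) or WT strength (right), with 1 the strongest. Error bars are 95% exact binomial intervals. The share is under 3% in the strongest set of either order and over 20% in the weakest.

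Within the members the 2 libraries of a group ordered the regions only loosely. The fold in WT replicate 1 and WT replicate 2 had a Spearman correlation of 0.47 over the 436 regions, and that in the 2 V2084D lists 0.22. Over all 3445 held regions the values were 0.56 and 0.37. These are correlations across regions, which share their library and their local background, and not across samples.

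The members strongest in WT lay almost all at the starts of genes. Of the 12 with the best WT ranks, 11 had their summit within 1 kb of a gene start in the RefSeq promoter table, and 8 had no knockdown peak within 50 kb. At ERBIN, a scaffold protein that binds the receptor ERBB2, chr5:65924798-65926848 had folds of 9.81 and 9.55 in WT and 4.99 and 4.68 in V2084D. The nearest knockdown peaks lay 217309 and 217477 bp away. This was the member without a listed start, since the promoter table has none for ERBIN nearby, and its summit lay 996 bp from the annotated end of the gene.

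RASL11A encodes a small GTPase, and its region chr13:27270462-27271373 had folds of 9.81 and 8.95 in WT and 3.84 and 6.13 in V2084D. The V2084D values of RASL11A were thus further apart than its WT values. At AGAP2 and its antisense gene AGAP2-AS1, chr12:57725857-57727173 had 10.2 and 8.95 in WT and 5.42 and 4.69 in V2084D. The region chr5:6632252-6634339 spanned the neighbouring ends of NSUN2, a methyltransferase of cytosines in RNA, and SRD5A1, a steroid reductase. Its folds were 9.94 and 7.84 in WT and 4.14 and 5.41 in V2084D.

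PSMD1 had the strongest single WT value among these 12, with folds of 7.31 and 11.3 at chr2:231056496-231057418, and 3.52 and 3.08 in V2084D. The 2 WT folds were further apart here than at the other 11. ATG4C (5.64 and 5.73 in WT, 4.35 and 2.45 in V2084D), the choline transporter gene SLC44A1 (8.30 and 6.91, 3.81 and 4.17) and EIF4ENIF1, which encodes the nuclear importer of the cap-binding protein eIF4E (7.10 and 6.64, 4.95 and 4.14), followed. The other named regions lay at HIGD1A (8.53 and 9.50 in WT, 3.52 and 3.28 in V2084D), at NANP, a phosphatase of sialic acid synthesis (8.30 and 8.31, 4.51 and 4.66), and at the opposite starts of LMO7 and LMO7-AS1 (8.30 and 7.88, 4.91 and 3.10). At each of the 12 both V2084D folds were below both WT folds. The 12 were picked for high WT ranks, and folds of different lists are not on 1 scale.

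The members strongest in V2084D were of another kind. Of the 12 with the best V2084D ranks, 7 had no protein-coding gene within 10 kb, and 4 had a knockdown peak within 1 kb of the region although none touched it. The first was chr21:8986778-8987488, which spans the miRNA gene MIR3648-2, with folds of 3.46 and 3.55 in WT and of 5.93 and 4.15 in V2084D and ranks of 61 and 108 in the V2084D lists. The nearest knockdown peaks were 337123 and 515413 bp away. The second, chr21:8391213-8391614, lay inside RNA45SN3, a copy of the ribosomal RNA precursor gene, 2178 to 2579 bp after its lower end, with 4.51 and 3.15 in WT and 4.78 and 4.69 in V2084D. Its nearest knockdown peaks were 222 and 122 bp away.

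The short arm of chromosome 21 from 8.2 to 9.0 Mb, which holds several copies of the ribosomal DNA, had 51 WT regions, of which 46 were held, 9 were members and 25 had a peak in both knockdown lists. Each list had peaks there, namely 65 and 69 for WT, 68 and 68 for the mutant, and 57 and 53 for the mutant with knockdown, although the V2084D and knockdown lists were much shorter than those of WT. A further 17 members lay on sequences outside the assembled chromosomes, among 64 held regions there. Near-identical copies share reads, so which copy a peak is placed on is uncertain for these members. Without the sequences outside the assembled chromosomes 419 members were left.

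Among the V2084D-strong members at genes, ANKRD49 and MRE11, which encodes the nuclease of the double-strand break sensor, share a divergent start, and chr11:94493387-94493868 had folds of 8.40 and 4.71 in WT and of 6.74 and 5.51 in V2084D. The WT values were far apart and the V2084D values lay between them. At RNF144A, a ubiquitin ligase gene, chr2:6916970-6918187 had 6.07 and 6.31 in WT and 6.0002 and 6.24 in V2084D. These 4 values were close, but folds of different lists are not on 1 scale. IMP3, a component of the U3 particle that processes ribosomal RNA, had 8.201 and 3.36 in WT and 4.90 and 5.17 in V2084D at chr15:75639513-75640906. DCTPP1, a hydrolase of dCTP, had 4.76 and 6.55 in WT and 4.90 and 4.76 in V2084D at chr16:30429329-30430083, and a peak of knockdown replicate 1 lay 100 bp beside it. The last of these regions, chr2:219541664-219542187, lay 1199 bp from the start of CHPF, a chondroitin polymerase gene, with 5.30 and 6.90 in WT and 5.47 and 6.01 in V2084D.

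The rule separates regions by single bases. The smallest overlap that made a region a member was 7 bp, between a peak of V2084D replicate 2 and the region at TUBB2A on chromosome 6, followed by 19 bp at EPB41L4B on chromosome 9 and 64 bp at ZNF571 on chromosome 19. In 22 members (5.05%) the overlap with V2084D was under 200 bp in at least 1 list. Just outside the rule, a knockdown peak touched the held region at DENND6B by 20 bp, that at DNLZ by 70 bp and that at MTM1 by 81 bp. Just inside it, the nearest knockdown peak lay 19 bp from the member at IQCK, 57 bp from that at H2BC17 and 100 bp from that at DCTPP1.

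Around the members the shares with further V2084D peaks and with further knockdown peaks overlapped. A knockdown peak lay within 500 bp outside the region at 26 members (5.96%), within 1000 bp at 37 (8.49%) and within 10 kb at 115 (26.4%), and 204 members (46.8%) had none within 50 kb. In knockdown replicates 1 and 2, 49.3% and 41.3% of members had a further peak within 50 kb. Over all WT regions these shares were 48.6% and 41.7%, so the members stood close to them. Peaks that did not overlap the region were not used by the rule, so they were compared between groups. A knockdown peak near enough to reach a region takes it out of the members, so the comparison is not wholly free of the rule. Of the members 17.2% and 28.2% had a further V2084D peak within 10 kb, and 22.7% and 17.9% a knockdown peak. The groups overlapped, with means of 22.7% ± 7.78 (SD, n = 2) for V2084D and 20.3% ± 3.41 (SD, n = 2) with knockdown. The difference of -2.41 percentage points was smaller than the spread between the V2084D libraries (exact permutation test over libraries, two-sided, p = 1). With 2 libraries against 2 no p below 1 in 3 can be reached. Both knockdown lists lay between the 2 V2084D lists in length, and the 4 shares had the same order as the lengths. This order was also found over all WT regions, so the test shows nothing particular to the members. The part of list length was not tested.

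The same shares over all WT regions were 14.9% and 26.0% for V2084D and 21.5% and 16.5% with knockdown. At held regions with a peak in both knockdown lists they were 22.3% and 35.1%, and 30.4% and 24.2%. The share of members with a further WT peak within 10 kb was 48.4% and 47.7%, beside 49.4% and 47.3% over all WT regions.

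**Figure D3:**
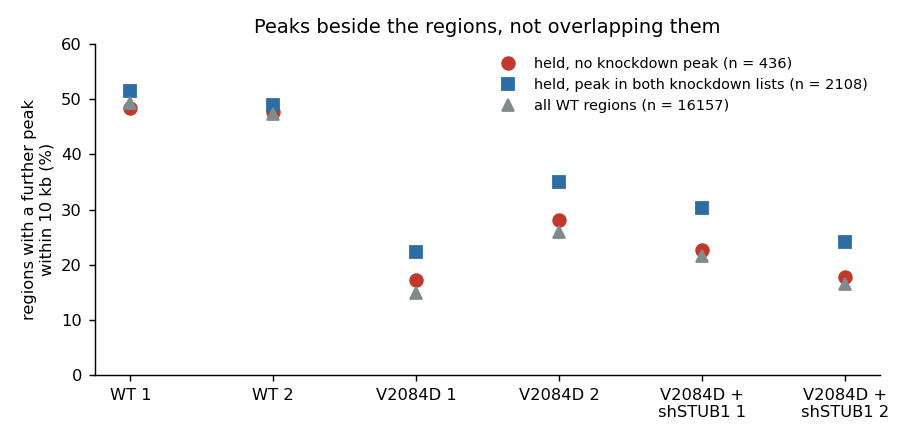
Percentage of regions with a further peak within 10 kb that does not overlap the region, by peak list, for members (circles), held regions with a peak in both knockdown lists (squares) and all WT regions (triangles). The members lie between 17.2% and 28.2% in the 4 mutant lists, with the knockdown lists inside the range of the V2084D lists.

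Most members lay at the starts of genes, as other held regions did. The WT summit was within 1 kb of an end of a protein-coding gene at 269 of the 436 members (61.7%, 95% exact binomial interval 57.0 to 66.3%), by the summits of either WT library. The shares were 66.5% for held regions with both knockdown peaks and 56.1% and 56.3% over all WT regions, by the summits of WT replicates 1 and 2. A start in the RefSeq promoter table, which gives the strand, lay within 1 kb of 268 members by WT replicate 1 (61.5%), and 7 members (1.61%) lay at the far end of a gene without a start nearby. The table used here holds 15843 of the 20056 protein-coding genes and lists no start on chromosome 8, so all 23 members there count as having none, also those at gene ends such as COX6C. Over the 413 other members the share with a listed start was 64.9%, beside 66.4% of held regions with both knockdown peaks and 57.2% of all WT regions outside chromosome 8. Leaving out this chromosome was chosen after seeing the data.

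Starts on both strands within 1 kb, the layout of a divergent promoter, were found at 68 members (15.6%) beside 20.6% of held regions with both knockdown peaks and 14.2% of all WT regions, by WT replicate 1. Among the 413 members outside chromosome 8, and away from any listed start, 59 (14.3%) had their summit inside a protein-coding gene and 86 (20.8%) outside. Over all WT regions outside chromosome 8 these shares were 20.7% and 22.0%. Exons and UTRs were not analysed here. The members were 353 to 3742 bp long with a median of 1018 bp, against 1291 bp for held regions with both knockdown peaks and 903 bp for all WT regions. Median distances between the WT replicate 1 summit and the V2084D summits were 168.5 and 162 bp, and 122 bp to the summit of WT replicate 2.

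**Figure D4:**
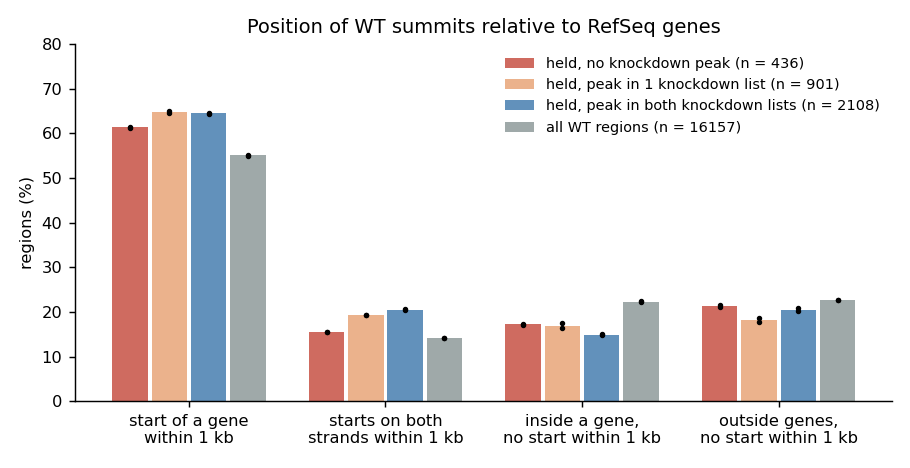
Percentage of regions whose WT summit lies in each position relative to RefSeq genes, for members (red), held regions with a peak in 1 (orange) or both (blue) knockdown lists and all WT regions (grey). Bars are means of the values from the 2 WT libraries and dots are the 2 values. Chromosome 8, on which no start was listed, is included. The members stand at 61.5% and 61.2% for starts within 1 kb, between all WT regions and the other held regions.

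The promoters at the members resembled promoters at other held regions in base composition. The 250 bases before the start of protein-coding genes overlapped a member in 303 windows of 262 genes, with a median GC content of 68.8% and a median observed-to-expected CpG ratio of 0.87. At held regions with both knockdown peaks these were 67.6% and 0.86, and over all 22183 promoter windows 62.0% and 0.71. GC boxes (GGGCGG) were in 79.9% of the member promoters, in 74.1% of those at held regions with both knockdown peaks and in 53.7% of all. CREB letters (TGACGTC) were in 7.26%, 4.84% and 3.73%, AP-1 letters (TGANTCA) in 4.29%, 2.66% and 5.35%, and E-boxes (CACGTG) in 6.60%, 10.1% and 7.38%. CCAAT boxes (29.4%, 33.8% and 32.7%), ETS letters (15.5%, 17.7% and 10.7%), TEAD letters (7.92%, 9.06% and 10.5%) and NRF1 letters (3.96%, 5.52% and 4.08%) were also searched. TATA boxes were in 10 of the 303 member windows, beside 4.53% and 9.01% of the other sets. These shares are descriptions, and the AP-1 and CREB values at members rest on 13 and 22 windows.

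The members were spread over the chromosomes, and their share of the held regions was low on chromosome 1. There 27 of 616 held regions lacked a knockdown peak (4.38%, 95% exact binomial interval 2.91 to 6.31%), and on chromosome 15 12 of 182 did (6.59%, 3.45 to 11.2%). The share was 24.1% (15.6 to 34.5%) on chromosome 4, 20.1% (14.1 to 27.3%) on chromosome 2 and 20.0% (13.5 to 27.9%) on chromosome 11. Chromosome 1 held 10.02% and 9.72% of the WT peaks. Its share was 18.6% and 17.6% in the V2084D lists, and 16.5% and 18.1% in the knockdown lists. In the stretch of chromosome 1 from 29 to 56 Mb, where 221 of 314 WT regions were held, 1 of the 221 lacked a knockdown peak (0.452%, 0.0115 to 2.50%). In 2 further stretches near the end of the long arm 0 of 66 did, which allows up to 5.44% by the exact interval. These stretches were chosen after the values were seen, the many mutant peaks there included. Mutant peaks include those of the knockdown lists, so low shares there are partly given by the choice and are no separate result. The intervals also count neighbouring regions as independent, which was not tested. On the rest of chromosome 1 it was 26 of 329 (7.90%, 5.23 to 11.4%). Outside these stretches and the first 10 Mb of chromosome 6 the share was 13.9% (12.7 to 15.2%).

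**Figure D5:**
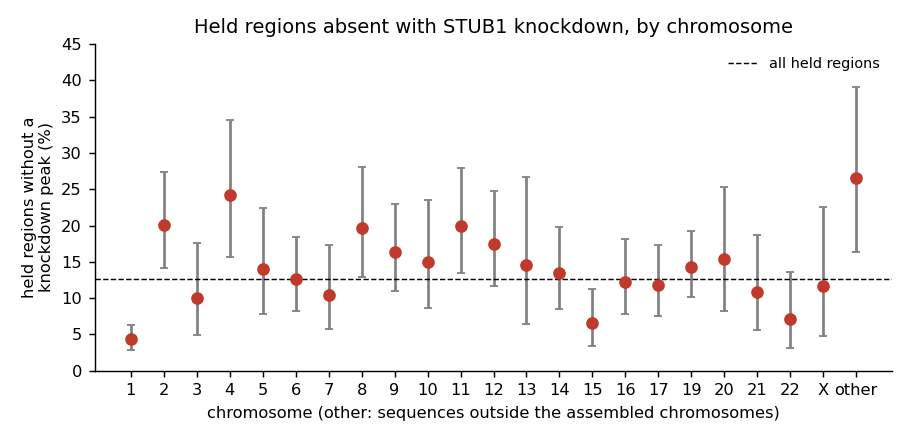
Percentage of held regions without a knockdown peak on each chromosome with at least 50 held regions, with 95% exact binomial intervals, and over all held regions (dashed line, 12.7%). Chromosome 1 lies at 4.38%, chromosome 4 at 24.1% and sequences outside the assembled chromosomes at 26.6%.

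Members rarely stood in rows. Members with another member within 100 kb numbered 66, in 30 runs, and 370 stood alone. Runs without any knockdown peak included the pair at BBS1 and ZDHHC24 on chromosome 11, where BBS1 is a gene of the ciliary BBSome, the pair at ZDHHC12 and PKN3 on chromosome 9, and the pair at the zinc finger genes ZNF573 and ZNF607 on chromosome 19. At HOXD13 the pair from 176092041 to 176098143 on chromosome 2 also held no knockdown peak. In each of these named runs the 2 members were the only WT regions. The absence of knockdown peaks there thus follows largely from the rule and is no separate result.

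By gene, 551 of the 12325 protein-coding genes with a WT region within 10 kb had a member there (4.47%), as had 13.6% of the 4041 genes with a held region. For 285 of the 551 no knockdown peak of any kind lay within 10 kb of either end. The 551 genes were picked through regions without a knockdown peak, which raises this count. The same share over all genes with a WT or held region is not given here, so the count has no comparison. Of 21 gene lists, 11 had at least 1 gene with a member and 10 had none. The lists are small, neighbouring genes share regions, and the lists were not tested.

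Endoplasmic reticulum chaperones and genes of the unfolded protein response had 3 of 28 (HSPA5, SYVN1 and CALR), and 8 of the 28 had a held region. The region at HSPA5, chr9:125240810-125242017, had folds of 6.64 and 2.79 in WT and of 3.91 and 2.76 in V2084D. Its values in the second library of each group were low, and no knockdown peak lay within 10 kb. The region near CALR, the gene of the calcium-binding chaperone calreticulin, lay 7428 bp from the start of the gene, with folds of 3.44 and 3.44 in WT and 3.65 and 3.83 in V2084D. That of SYVN1, the ubiquitin ligase of degradation at the endoplasmic reticulum, had 4.33 and 3.66 in WT and 3.13 and 3.28 in V2084D. It lay 9630 bp from the nearest end of SYVN1 and 52 bp from the start of ZNHIT2, and the gene had knockdown peaks within 10 kb. Of 24 cytosolic chaperones and STUB1 partners 13 had a held region and none a member. Beside the 13.6% over all genes with a held region, 0 of 13 says little.

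Proteasome subunits had 3 of 25, with 6 held (PSMD1, PSMB4 and PSMB6). PSMD1 had a second member 4071 bp before its start, nearer to C2orf72, with 4.98 and 4.35 in WT and 3.52 and 3.55 in V2084D. PSMB4, a subunit of the catalytic core, had folds of 2.98 and 3.87 in WT and of 3.91 and 4.55 in V2084D at chr1:151398617-151400128. PSMB6, whose region chr17:4806498-4808085 lay 8348 bp from the gene's nearest end and 166 bp from the start of C17orf114, had 9.38 and 7.76 in WT and 4.55 and 4.33 in V2084D. Cytosolic ribosomal protein genes had 0 of 40, with 19 held, and glycolysis and hypoxia genes 0 of 24, with 11 held. SWI/SNF subunits themselves had 0 of 26, with 13 held.

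Cholesterol synthesis genes had 3 of 24, with 7 held, and no knockdown peak within 10 kb of any of the 3. The same was found for 285 of the 551 protein-coding genes with a member, and 3 genes are few. HSD17B7, a ketoreductase, had folds of 5.15 and 4.08 in WT and 3.20 and 3.83 in V2084D. FDFT1, the squalene synthase gene, had 9.20 and 4.55 in WT and 3.72 and 4.94 in V2084D, with its region 7374 bp from an annotated end, on chromosome 8.

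Nuclear genes of oxidative phosphorylation had 3 of 34, with 9 held (COX6C, CYC1 and NDUFB9), all 3 on chromosome 8. COX6C, a subunit of cytochrome c oxidase, had 7.08 and 4.37 in WT and 5.38 and 3.97 in V2084D, and the nearest knockdown peak was 263706 bp away. NDUFB9, a subunit of complex I, had 6.64 and 4.01 in WT and 4.92 and 3.95 in V2084D. CYC1, cytochrome c1 of complex III, had 5.82 and 5.65 in WT and 4.70 and 4.35 in V2084D, with knockdown peaks within 10 kb of the gene.

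TGF-beta response and mesenchymal genes had 3 of 26, with 9 held. SMAD2 and SMAD4, the transcription factors that carry the signal from the receptor to the nucleus, had members at their starts. The region at SMAD2, chr18:47929900-47931955, had folds of 7.16 and 6.18 in WT and of 4.55 and 3.68 in V2084D, and that at SMAD4, chr18:51029680-51030823, had 6.23 and 3.64 in WT and 3.51 and 3.01 in V2084D. Neither gene had a knockdown peak within 10 kb. The third region, at the collagen gene COL1A1, had 3.90 and 3.91 in WT and 3.08 and 3.52 in V2084D, and a peak of knockdown replicate 2 lay 230 bp beside it.

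HOX genes, which pattern the body axis, had 7 of 37, with 13 held, but the 7 genes shared 3 regions. The region at chr7:27150174-27151383 lay within 10 kb of HOXA3, HOXA5, HOXA6 and HOXA7 with folds of 7.75 and 4.70 in WT and 3.84 and 4.38 in V2084D. The 2 on chromosome 2 lay near HOXD11, HOXD12 and HOXD13, with 4.88 and 5.87 in WT and 4.80 and 4.58 in V2084D for the one at the start of HOXD13, and 5.63 and 7.53 in WT and 3.91 and 3.83 in V2084D for the other. All 7 genes had a knockdown peak elsewhere within 10 kb.

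Endothelial and fibroblast markers had 2 of 8, and only these 2 had a held region at all. KDR, the VEGF receptor gene, had a region at its start, chr4:55125300-55125950, with 5.81 and 5.68 in WT and 4.93 and 4.83 in V2084D, and the 2 libraries of each group were close to each other. The region near ROBO4, a guidance receptor of endothelium, had 6.23 and 7.12 in WT and 4.92 and 4.46 in V2084D and lay 239 bp from the start of its neighbour ROBO3, 21290 bp from the start of ROBO4 and 7116 bp from the nearest end of ROBO4. Among p53 targets (2 of 24, 11 held), RRM2B, a subunit of ribonucleotide reductase, had 4.27 and 4.39 in WT and 3.39 and 5.76 in V2084D, and BBC3, the cell death gene PUMA, had 6.57 and 7.89 in WT and 3.81 and 6.79 in V2084D. Its fold in V2084D replicate 2 was far above that in replicate 1.

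Cell cycle and replication genes had 2 of 33, with 9 held. CCND1 (cyclin D1) had 8.28 and 4.70 in WT and 6.56 and 3.62 in V2084D, and PCNA, the sliding clamp of replication, 7.18 and 4.81 in WT and 4.91 and 4.34 in V2084D. The region of PCNA lay 209 bp from the start of CDS2 and 595 bp from that of PCNA. Both genes had peaks of both knockdown lists within 10 kb. Of Polycomb and histone modifying enzymes 2 of 28 had a member, with 11 held. At KDM5B, a demethylase of histone H3 lysine methylation, the region chr1:202806722-202808749 had 6.29 and 5.02 in WT and 4.14 and 4.69 in V2084D. JARID2, an accessory subunit of a Polycomb repressive complex, had 3.97 and 4.09 in WT and 4.16 and 2.39 in V2084D. KDM5B had a peak of knockdown replicate 1 elsewhere within 10 kb, and JARID2 peaks of both knockdown lists. Receptor kinases and MAPK feedback genes had 1 of 27, KDR again. AP-1 family genes (0 of 16, 7 held), YAP/TAZ targets and TEADs (0 of 20, 9 held), liver transcription factors (0 of 18, 4 held), hepatocyte secreted proteins and metabolism (0 of 8, 3 held), interferon and antigen presentation genes (0 of 14, 4 held) and blood cell markers (0 of 12, 5 held) had none.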

How the data were processed

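Flag ChIP-seq peak lists of 6 libraries were used, 2 each of WT, V2084D and V2084D with STUB1 knockdown. Per the submitters' processing notes the authors worked on hg38 with MACS2, Bowtie2, Trimmomatic, Picard, SAMtools, deepTools and bedtools. Versions, settings and the control of the calls: not given in the sources used here. The deposited list of every library gives a fold enrichment (a ratio) and −log10 p and −log10 q values per peak, as the authors' caller gave them, and a deposited score, which is 10 times −log10 q rounded down. Peaks were called per library, per the peak names, and their highest q values ran from 0.229 to 0.250. Fold and q were used only within a list.

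Regions, positions and neighbours were computed with python 3.11.15, numpy 2.4.6, pandas 2.3.3 and scipy 1.17.1. Gene positions and promoters are RefSeq GRCh38.p14, the assembly that hg38 names. Of 601 listed gene names 600 matched. A gene was near a region within 10 kb of either end. Genes were named by a rule: the 12 members strongest by the worse rank by −log10 q in WT, or in V2084D, listed genes, and members at the edge of the rule. Members and lists were chosen with earlier results of these data known. The membership code was tested on simulated lists and recovered 400 of 400 planted regions among 16000 with 0 false ones. The simulated regions stood far apart with peaks of equal width in all lists, and no unplanted region was given the member pattern. This checks the code alone and does not measure how many real members are false. Intervals are exact binomial (95%). Results for some named members are not reported here.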

Additional observations from a re-analysis of the deposited data

How the results depend on the processing

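Read depth is unknown, and with 2 libraries a group no test here could pass 0.05. The number of members changed with most settings. It was 215 with an overlap of at least 50% of both peaks, 257 with summits within 200 bp, 73 with −log10 q of at least 5 and 85 with fold enrichment of at least 5, and ran from 487 to 2043 with a library left out, when 1 library stood for its group (the fewest without WT replicate 1, the most without V2084D replicate 1). Lists of equal length gave 358. The regions changed too: 10 of the 436 overlapped a member at −log10 q of at least 5, 14 at fold enrichment of at least 5, 111 with the 50% overlap, 156 by summits and 219 with mutant lists of equal length. The share of members at gene ends was 54.8% with −log10 q of at least 5, 54.2% within 500 bp and 69.6% within 2 kb, and ran from 58.9% to 65.2% with a library left out. The median WT fold (mean of both WT lists, 5.24) was 7.01 with −log10 q of at least 5 and 7.02 with fold of at least 5, and ran from 4.88 to 5.64 with a library left out. The difference in further peaks turned to 0.59 percentage points with fold enrichment of at least 5 and to 4.01 without V2084D replicate 2, and ran from -6.68 to 4.01 with a library left out, and the cause was not tested. With the replicate block, that is with equal replicate numbers as pairs, it was -2.41 (exact permutation p = 1). The numbers give no more than a name, and 2 pairs allow no p under 0.5. The alternative on assembled chromosomes alone was chosen after seeing the data.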

Other observations

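A tRNA gene lay within 1 kb of the WT replicate 1 summit at 2 members (0.459%), TRD-GTC2-8 and TRL-CAA4-1, beside 67 of the 2108 held regions with a peak in both knockdown lists (3.18%) and 179 of all WT regions (1.11%). Small nuclear RNA genes, which serve splicing, were within 1 kb of 0 of 436 members. With 3 counts as a rough upper limit, which is not the exact interval used elsewhere, this allows a share of up to 0.688%. The other counts were 32 of the 2108 (1.52%), 0 of the 901 held regions with a peak in 1 knockdown list and 62 of all WT regions (0.384%). The share over all WT regions is below that limit. A miRNA gene was within 1 kb of 4 members (0.917%) beside 1.05% of all WT regions, and a snoRNA gene of 1 member (0.229%) beside 0.272%. These counts are a description, and the members are also the weaker held regions.

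Of 250 zinc finger genes named ZNF on chromosome 19, many of which encode DNA-binding repressors, 152 had a WT region within 10 kb, 34 a held region and 7 a member (ZNF324B, ZNF571, ZNF573, ZNF580, ZNF581, ZNF584 and ZNF607). The 7 are 4.61% of the 152, close to the 4.47% over all protein-coding genes with a WT region. For 4 of the 7 no knockdown peak lay within 10 kb, beside 285 of the 551 protein-coding genes with a member. This group was chosen after the members were seen.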
